A study of Mus musculus with 4 samples.

Results

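Circular RNAs (circRNAs) are closed loops made by back-splicing, in which the end of a later exon is joined to the start of an earlier one, and those made from transporter and ion channel genes of developing mouse lung are described here. A host gene was counted when its symbol begins with Slc and a digit, Atp2, Atp8, Atp9, Atp10, Atp11, Abca, Abcb, Abcc, Kcn, Scn, Cacn, Trpc, Trpm or Trpv. Slc34a2, Slc8a1, Atp8a1 and Trpc6 were not included. By this rule 228 of 13499 listed circRNAs came from 105 host genes, out of 4647 host genes in all, and they held 1752 junction reads. A junction read is a sequencing read that crosses the back-splice junction of a circle.

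Total RNA was extracted with TRIzol from lungs of C57BL/6 mice and sequenced as 4 libraries, 1 per stage. The pseudoglandular library came from embryonic day 14.5, the canalicular library from embryonic day 16.5, the terminal sac library from embryonic day 18.5 and the alveolar library from newborn day 7.5. All are whole lung of the same strain, with no treatment or allele named, and the number of animals behind each library is not given in the labels. Because every stage has a single library, differences could not be checked against replicates. Every comparison is therefore of libraries, and no p-value is given.

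Transporters and channels set what crosses cell membranes. Solute carriers (Slc genes) move sugars, amino acids, fatty acids, metals and ions along or against gradients, ATP-driven pumps and ABC transporters spend ATP to do so, and channels let ions pass down their gradients. In lung they are known for fluid movement across the epithelium, lipid handling for surfactant, and calcium entry in airway and vessel muscle.

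The label was checked against gene names and against markers of tissue. Of the 105 hosts, 3 name no transporter or channel: Kcnq1ot1 is a long non-coding RNA, and Slc4a1ap and Trpc4ap encode partner proteins. Circles from markers of alveolar type 2 cells (7 of 8 genes listed) held 2, 24, 448 and 766 junction reads in order of stage, so hosts known from these cells were present. Markers of alveolar type 1 cells (2 of 6 listed) held 5, 0, 7 and 31, and Ager, Hopx, Pdpn and Aqp5 were unlisted. Markers of endothelium (6 of 6 listed) held 8, 24, 79 and 133, and markers of smooth muscle and pericytes (3 of 5 listed, Acta2 unlisted) held 21, 25, 54 and 113. Markers of macrophages (4 of 4 listed) held 8, 47, 60 and 15 junction reads, or 3.08, 15.1, 16.6 and 5.29 per 10000, with the maximum in the terminal sac library. Markers of cardiac and striated muscle held 94, 28, 16 and 26 junction reads, from 3 of 8 genes, Ttn, Ryr2 and Slc8a1. Myh6, Actn2, Tnnt2, Myom1 and Ldb3 were unlisted. Ryr2 and Slc8a1 are themselves transport genes, though not members here. The same holds for Slc34a2 in the type 2 list and Trpc6 in the smooth muscle list. The lists for neurons, erythroid cells and lymphocytes each held 7 or fewer junction reads in every library. The general lung epithelium markers Nkx2-1, Foxa2, Cdh1 and Epcam had no listed circle in any library. Listed junction reads in all were 25983, 31218, 36156 and 28332 in order of stage.

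The junctions below belong to circles named in the results on calcium and sodium channels, the ATP-binding cassette transporter Abca1, the amino acid carrier Slc16a10 and the channel kinase Trpm7. Not all of these circles differed between libraries by the limits set below. Each line gives the last 25 bases of the circle in lower case and the first 25 bases in capitals, 5′ to 3′, as spliced in the GENCODE M21 transcript on mm10. The change from lower case to capitals is the back-splice junction. The first 2 lines share their capitals because both Cacna1c circles begin at exon 2, and the last 2 share theirs because both Abca1 circles begin at exon 3.
Cacna1c exons 2 to 3, chr6:119052601-119057515, minus strand: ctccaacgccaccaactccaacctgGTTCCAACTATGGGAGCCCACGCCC
Cacna1c exons 2 to 5, chr6:118776417-119057515, minus strand: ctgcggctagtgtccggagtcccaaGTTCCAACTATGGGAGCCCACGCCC
Cacna1d exons 2 to 3, chr14:30346798-30350949, minus strand: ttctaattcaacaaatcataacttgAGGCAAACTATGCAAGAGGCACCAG
Scn7a exons 5 to 9, chr2:66726154-66743831, minus strand: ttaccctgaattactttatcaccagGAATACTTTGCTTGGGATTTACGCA
Slc16a10 exons 2 to 3, chr10:40076564-40080807, minus strand: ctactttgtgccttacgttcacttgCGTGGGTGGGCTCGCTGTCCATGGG
Trpm7 exons 26 to 27, chr2:126810163-126813408, minus strand: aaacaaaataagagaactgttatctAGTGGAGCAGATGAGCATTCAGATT
Abca1 exons 3 to 7, chr4:53107006-53133015, minus strand: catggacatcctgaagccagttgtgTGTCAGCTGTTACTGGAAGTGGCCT
Abca1 exons 3 to 5, chr4:53127597-53133015, minus strand: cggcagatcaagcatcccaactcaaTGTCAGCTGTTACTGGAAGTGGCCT

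The related channels Cacna1c and Cacna1d both gave a circle of exons 2 to 3. Of the 25 bases shown at the end of the circle 14 were identical between them, and of the 25 at its start 11 were. Reads across these junctions can thus be told apart by their letters on either side.

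Transporter and channel circles made up a small and slightly different share of each library. The pseudoglandular library had 331 of their junction reads (1.27% of those listed, exact binomial 95% interval 1.14 to 1.42) and the canalicular had 415 (1.33%, 1.21 to 1.46). The terminal sac library had 541 (1.50%, 1.37 to 1.63) and the alveolar had 465 (1.64%, 1.50 to 1.80). The intervals of neighbouring stages overlapped, and those of the first and the last did not. Of the reads in those libraries, Scn7a alone gave 0 of the 331 and 62 of the 465. The shares were not computed without it, so the difference cannot be read as one of the members as a whole. All intervals given here cover counting error only, since each stage has 1 library. PCR copies of 1 molecule can be read more than once, which the intervals and floors do not take into account. The number of listed circles was 73, 78, 82 and 88, from 47, 51, 41 and 55 hosts in order of stage.

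Reads were concentrated in few hosts. Cacna1c, Atp9b, Scn7a and Slc27a6, the 4 hosts with 100 or more junction reads, held 48.0% of the 1752, and 8 hosts with 40 or more held 62.0%. At the other end, 24 hosts had 2 junction reads, and 56 hosts were listed in 1 library. The 11 hosts listed in all 4 libraries held 57.2% of the reads. Where a library listed no read of a host, a floor of 3 reads was used, which was between 0.830 and 1.15 per 10000 listed junction reads.

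**Figure D1:**
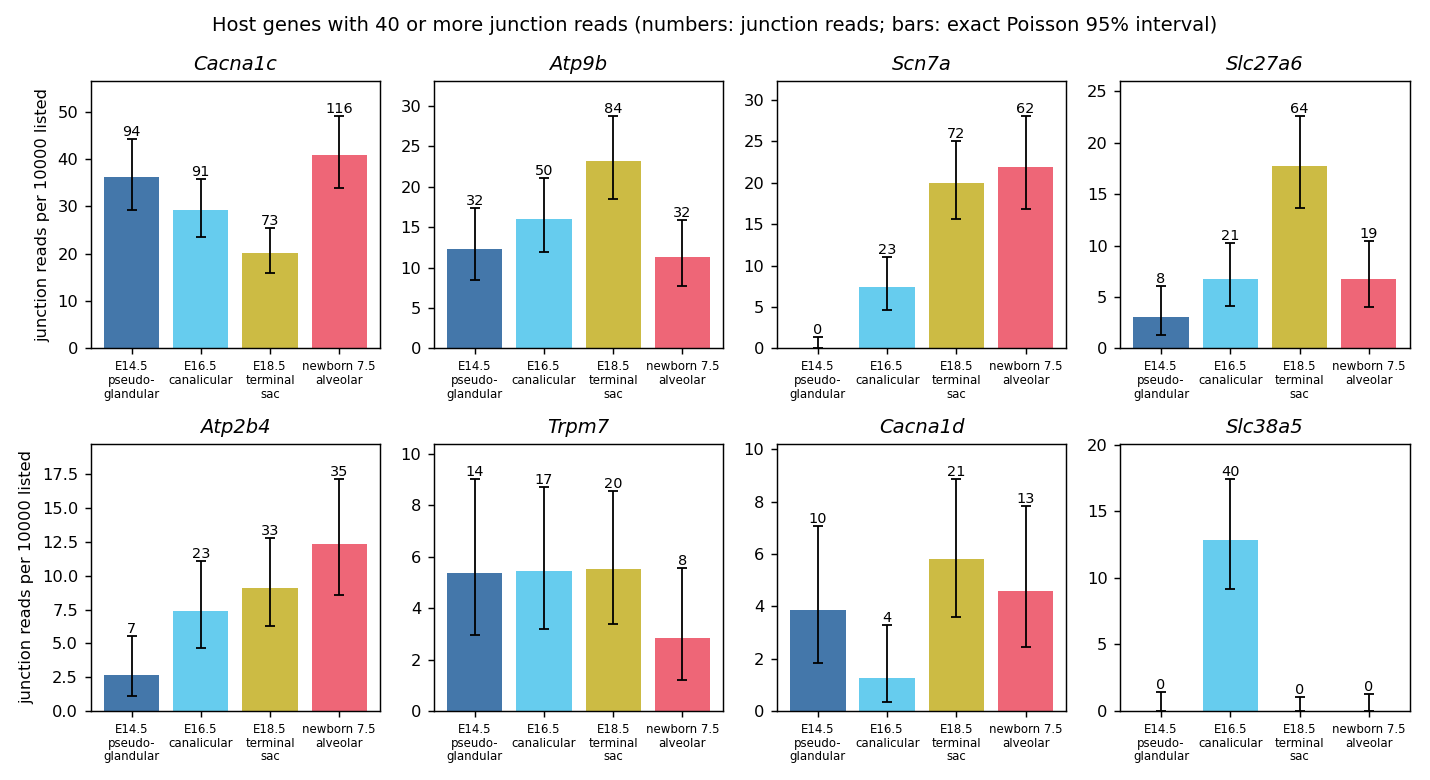
Junction reads per 10000 listed junction reads (y axis, own scale in each panel) in the 4 libraries, for the 8 hosts with 40 or more reads, with exact Poisson 95% intervals and the read number over each bar. Scn7a had 62 reads in the alveolar library and none in the pseudoglandular, Slc27a6 and Atp9b were highest in the terminal sac library with 64 and 84, and Slc38a5 was listed in the canalicular library alone with 40.

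For a pair of libraries, a host's share of the listed junction reads in one was divided by its share in the other, and the 95% interval of this ratio is the exact binomial one conditional on their sum. Hosts whose junction reads in the pair came to 10 or more were tested, and a call of higher or lower needed a change of 2-fold or more and an interval that left out 1. Where a host was unlisted in 1 library of the pair, the fold against the floor of 3 reads is a bound. The bound assumes that 3 or fewer reads of the host were present there. It holds for the fold alone: its counting interval begins nearer to 1, and that end is given as the interval's start. These are bulk libraries, in which fewer cells of a type and less RNA per cell cannot be told apart.

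Calcium channel hosts held most reads of any class, with 456 junction reads from 8 genes. Summed over the class, the level was 43.1, 32.7, 28.2 and 49.4 junction reads per 10000 in order of stage, lowest in the terminal sac and highest in the alveolar library. Cacna1c, which encodes the pore of the L-type channel Cav1.2 that carries calcium into smooth and cardiac muscle, gave 374 of these reads from 17 circles. It had 94, 91, 73 and 116 junction reads in order of stage. In the alveolar library it was 2.03-fold higher than in the terminal sac (interval 1.50 to 2.76), and it did not pass against the pseudoglandular, at 1.13-fold (0.855 to 1.50). Without circles of the intron type, which have an end in an intron, the log2 ratio of the alveolar to the terminal sac library was 0.84, short of 2-fold.

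The circle of exons 2 to 3 of Cacna1c, whose junction is printed above, led the members with 243 junction reads. It is 428 bases long when spliced and lies within the coding sequence. It had 69, 53, 51 and 70 junction reads in order of stage, which is 26.6, 17.0, 14.1 and 24.7 per 10000. The circle that begins at exon 2 and ends in the intron at 119002577 had 11, 10, 5 and 17, and this circle was 4.34-fold higher (1.54 to 15.0) in the alveolar than in the terminal sac library. Exons 2 to 5 gave 3, 10, 3 and 7, highest in the canalicular library. In all, 8 circles of Cacna1c began at exon 2, at position 119057515 of chromosome 6, and held 90.4% of its reads.

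Cacna1d encodes the related pore Cav1.3, known from heart pacemaker and endocrine cells. It had 10, 4, 21 and 13 junction reads in order of stage, fewest in the canalicular library. It was 4.53-fold higher (1.53 to 18.2) in the terminal sac than in the canalicular library. Exons 2 to 3 gave 8, 4, 8 and 3 of these reads, and exons 44 to 45 gave 8 reads in the terminal sac library and none elsewhere. Over circles listed in both libraries the log2 ratio was 0.79, which did not pass. The auxiliary subunit gene Cacnb2 had 5, 3, 0 and 5 junction reads, and Cacnb4 had 3, 2, 0 and 3. Reads of smooth muscle markers, given above, were highest in the alveolar library and those of cardiac muscle markers in the pseudoglandular, and their part in the Cacna1c and Cacna1d values was not tested.

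Sodium channel hosts were Scn7a and, with 2 reads in the terminal sac library, Scnn1b, a subunit of the epithelial sodium channel. Scn7a encodes Nax, a channel that responds to the sodium level outside the cell. It was unlisted in the pseudoglandular library and had 23, 72 and 62 junction reads in the canalicular, terminal sac and alveolar libraries. Scn7a was at least 6.38-fold higher (interval from 1.93) in the canalicular than in the pseudoglandular library. In the alveolar library it was at least 19.0-fold higher (from 6.19) than in the pseudoglandular. In the terminal sac library it was 2.70-fold higher (1.67 to 4.53) than in the canalicular, and the alveolar and terminal sac libraries did not pass as different, at 1.10-fold (0.770 to 1.57).

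A pair of circles carried most of the Scn7a reads. Exons 5 to 9, a coding circle of 640 bases, had 0, 16, 47 and 30 junction reads in order of stage. Exons 2 to 4, which hold the start codon, had 0, 7, 25 and 18. Both were unlisted in the first library, and both were highest in the terminal sac library, so their order across the libraries was the same. The remaining 5 circles were listed in the alveolar library alone, with 2 to 5 reads each. Reads of type 2 cell and endothelium markers, given above, were higher at each later stage, also between the terminal sac and the alveolar library, where Scn7a did not pass. Their part in the Scn7a values was not tested.

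TRP channel hosts were led by Trpm7, a channel joined to a kinase that carries magnesium, calcium and zinc. It had 14, 17, 20 and 8 junction reads from 10 circles, lowest in the alveolar library. No pair passed, and the ratio of the alveolar to the terminal sac library was 0.510 (0.194 to 1.21). Exons 26 to 27 had 3, 6, 8 and 2 reads. Exons 11 to 25 had 9 reads in the pseudoglandular library and none elsewhere, and that circle has the same 6 bases at both ends, and is marked for it below. Trpm6, the kidney and gut magnesium channel, had 5 reads, and Trpc7 had 4, all in the terminal sac library.

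Potassium channel hosts were many and sparse, with 51 junction reads from 12 genes. Of these genes 9 were listed in 1 library. Their summed level was 9.62, 2.88, 0.553 and 5.29 junction reads per 10000 in order of stage. The binomial interval of the terminal sac library (0.0670 to 1.998) lay below those of the pseudoglandular (6.23 to 14.2) and the alveolar (2.96 to 8.73). The terminal sac value is 2 reads of 1 host, Kcnab1, fewer than the floor of 3 reads, which was not applied to class sums. Circles with fewer than 2 reads in a library are not listed, and the interval does not cover reads lost in this way. Kcnh1, a voltage-gated channel of the ether-a-go-go family, had 5, 2, 0 and 3 reads in order of stage. Kcnq5, a channel of the slow M-current, had 4, 0, 0 and 3, and Kcnk13, a background channel, had 0, 2, 0 and 4. The 25 reads of the pseudoglandular library came from Kcnh1, Kcnb2 and Kcnh7 with 5 each, Kcnq5 and Kcnmb1 with 4 each and Kcnn3 with 2. The class differed in the same direction as the cardiac and striated muscle markers between the pseudoglandular and the terminal sac library, and the part of those cells was not tested.

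**Figure D2:**
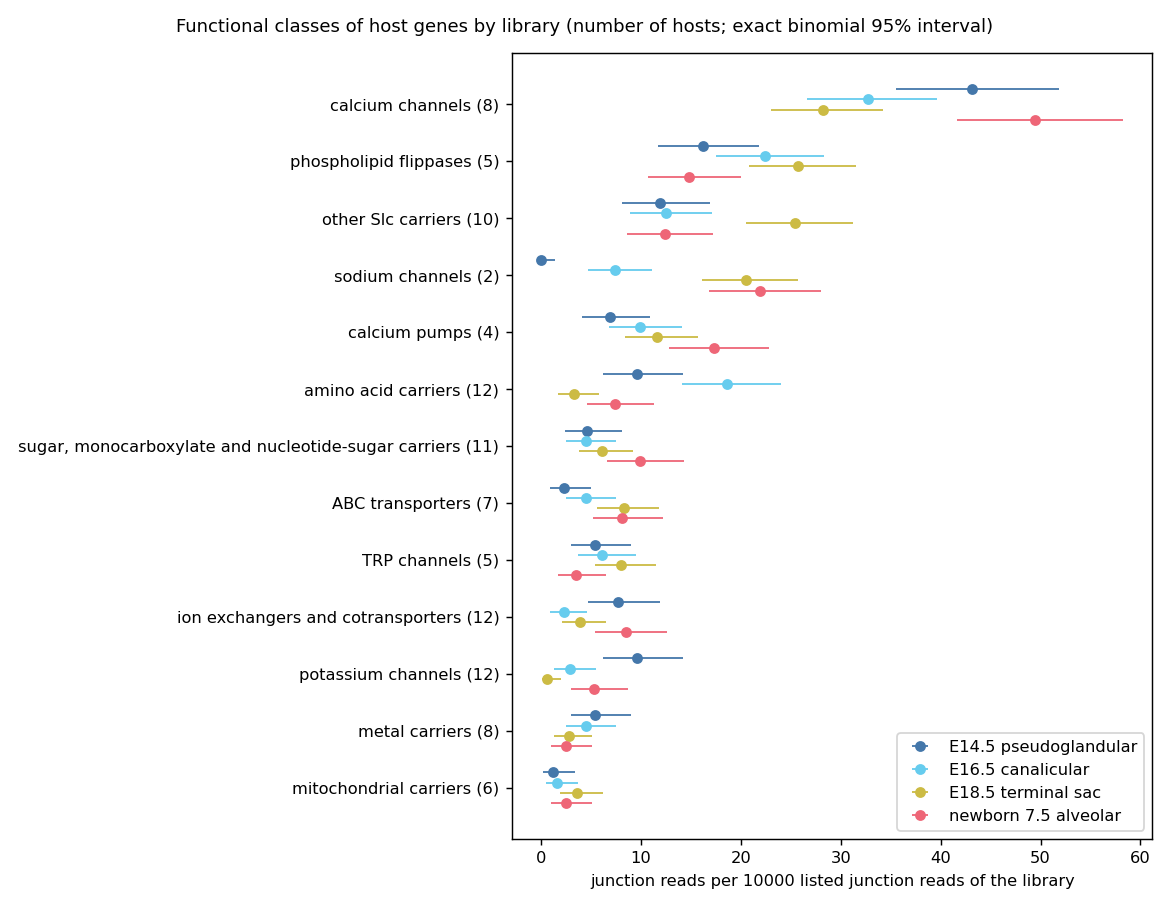
Summed junction reads per 10000 listed junction reads (x axis) of 13 functional classes in the 4 libraries, with exact binomial 95% intervals and the number of hosts in parentheses. Sodium channels stood at 21.9 in the alveolar and 0 in the pseudoglandular library, while potassium channels were lowest in the terminal sac library at 0.553, from 2 reads.

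Calcium pump hosts had a summed level of 6.93, 9.93, 11.6 and 17.3 junction reads per 10000 in order of stage. The binomial interval of the alveolar library (12.8 to 22.9) lay above that of the pseudoglandular (4.11 to 10.9), and neighbouring stages overlapped. Most reads came from Atp2b4, the plasma membrane calcium pump PMCA4. It had 7, 23, 33 and 35 junction reads in order of stage. It was 4.59-fold higher (2.01 to 12.2) in the alveolar and 2.73-fold higher (1.14 to 7.55) in the canalicular than in the pseudoglandular library. The 2 later steps did not pass, at 1.24-fold (0.706 to 2.21) between the terminal sac and canalicular libraries and 1.35-fold (0.817 to 2.25) between the alveolar and terminal sac. All but 2 of its 98 reads came from a single-exon circle of exon 2 (chromosome 1, 133753089 to 133753749), which holds the start codon.

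The other pumps were listed less evenly. Atp2b1, the plasma membrane pump PMCA1, had 5, 3, 0 and 9 junction reads, 11 of them from a single-exon circle of exon 2 that also holds the start codon. Atp2c1, which loads the Golgi with calcium and manganese, had 0, 5, 9 and 3. Atp2a2, which encodes the SERCA2 pump of the endoplasmic and sarcoplasmic reticulum, had 6, 0, 0 and 2. The smooth muscle, endothelium and alveolar type 2 markers were also highest in the alveolar library, and their part in the Atp2b4 values was not tested.

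Phospholipid flippase hosts, P4-type ATPases that move lipids between the leaflets of a membrane, held 247 junction reads from 5 genes. Atp9b, whose protein sits at the trans-Golgi network, gave 198 of them from 13 circles. It had 32, 50, 84 and 32 junction reads in order of stage, with the maximum in the terminal sac library. It was 2.06-fold lower (1.35 to 3.20) in the alveolar than in the terminal sac library, and the ratio of the terminal sac to the canalicular library, 1.45 (1.01 to 2.10), was short of 2-fold. This lower call rests on scaling and on the choice of circles. Its log2 ratio was -0.92 with median-of-ratios scaling, -0.98 with scaling by non-junction reads and -0.61 without circles marked for repeated ends or few alignment patterns, none of which reached 2-fold.

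Atp9b circles formed a nested series from 1 start. Exon 2 was the start of 9 circles, which held 93.9% of the reads, and those with both ends at exon boundaries ended at exons 4, 5, 6, 7, 8, 10 and 13. Exons 2 to 4 had 11, 19, 30 and 11 junction reads in order of stage. Exons 2 to 5 had 3, 10, 16 and 7, and exons 2 to 6 had 2, 3, 7 and 2. These shared a maximum in the terminal sac library. Exons 2 to 7 had 8, 11, 14 and 0, and exons 2 to 10 had 6, 0, 6 and 2. The circle ending at exon 7 has 6 identical bases at its ends and the one ending at exon 10 has 7.

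Atp11b, an endosomal flippase, had 10, 5, 0 and 5 junction reads in order of stage. Atp9a, an endosomal relative of Atp9b, had 0, 6, 7 and 2.

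**Figure D3:**
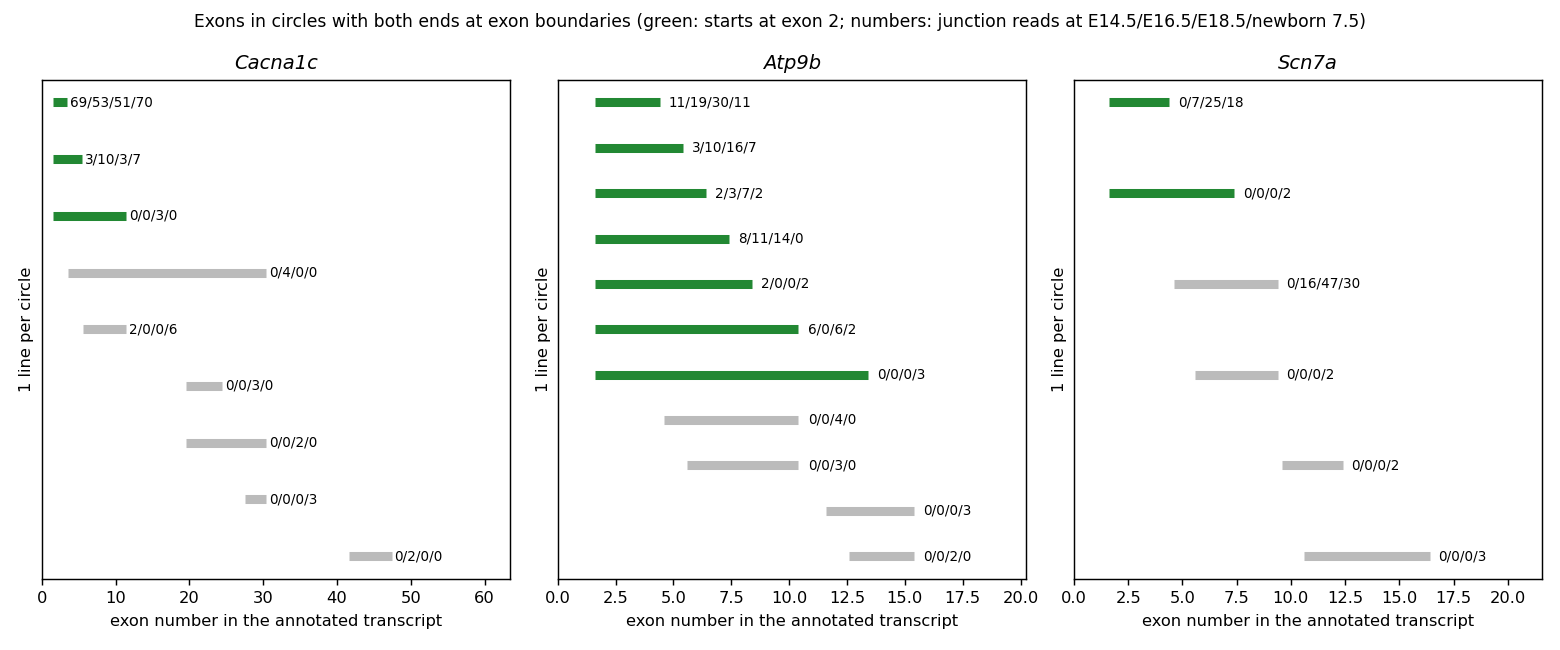
Exons held by each circle with both ends at exon boundaries (x axis, exon number in the annotated transcript; 1 line per circle) for Cacna1c, Atp9b and Scn7a, with junction reads in order of stage beside each line. Green lines begin at exon 2 and include the leading circles of Cacna1c (69, 53, 51 and 70 reads) and Atp9b (11, 19, 30 and 11), while the leading Scn7a circle runs from exon 5 to exon 9.

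ABC transporter hosts had a summed level of 2.31, 4.48, 8.30 and 8.12 junction reads per 10000 in order of stage. Abca1, which exports cholesterol and phospholipid to apolipoproteins, was unlisted in the pseudoglandular library and had 11, 17 and 5 junction reads in the next 3. It did not pass in any pair, and its fold of the canalicular over the pseudoglandular library was at least 3.05 with an interval from 0.806. Its circles of exons 3 to 7 (0, 3, 10 and 2 reads) and 3 to 5 (0, 3, 7 and 3), both printed above, were highest in the terminal sac library. Macrophage markers, given above, were highest there too, and their part in the Abca1 values was not tested. Abcc1, the drug and leukotriene exporter MRP1, had 4, 3, 3 and 6 reads, and Abca5 had 2, 0, 6 and 0. The type 2 cell transporter Abca3 had no listed circle.

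Slc27a6, a fatty acid transport protein, gave the most reads of any Slc host, 112, all from 1 circle of exons 2 to 4. It had 8, 21, 64 and 19 junction reads in order of stage, so the terminal sac library stood above the other 3. It was 2.63-fold higher (1.59 to 4.54) in the terminal sac than in the canalicular library. In the alveolar library it was 2.64-fold lower (1.56 to 4.67) than in the terminal sac. The circle is 488 bases long, lies within the coding sequence and had 62 distinct alignment patterns for its 64 reads in the terminal sac library.

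Slc20a2, the sodium-coupled phosphate carrier PiT-2, was highest in the pseudoglandular library, with 14, 5, 7 and 5 junction reads in order of stage. It was 3.05-fold lower (1.04 to 10.8) in the alveolar and 3.36-fold lower (1.15 to 11.9) in the canalicular than in the pseudoglandular library. The difference lay in a circle of exons 2 to 4 with 7 reads in the pseudoglandular library and none elsewhere, since exons 2 to 5 had 7, 5, 7 and 5. Over circles listed in both libraries the log2 ratios were -0.61 for the alveolar and -0.75 for the canalicular against the pseudoglandular library, which did not pass. The alveolar call also did not pass with median-of-ratios scaling (-1.49), scaling by non-junction reads (-1.44) or without the marked circles (-1.45).

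Slc10a7, a relative of the bile acid carriers that is linked to cellular calcium handling, had 2, 3, 15 and 0 junction reads. It was 4.32-fold higher (1.22 to 23.3) in the terminal sac than in the canalicular library. In the alveolar library it was at least 3.92-fold lower (interval from 1.11) than in the terminal sac. With exon-type circles alone the log2 ratio of the alveolar to the terminal sac library was -1.75 and did not pass. Slc33a1, the acetyl-CoA carrier of the endoplasmic reticulum, had 5, 5, 3 and 4 reads.

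Amino acid carrier hosts held 25, 58, 12 and 21 junction reads in order of stage. The canalicular value rests on Slc38a5, a sodium-coupled carrier of glutamine and other neutral amino acids, which had 40 junction reads there and was unlisted in the other 3 libraries. That was at least 11.1-fold higher (interval from 3.53) in the canalicular than in the pseudoglandular library. It was at least 15.4-fold lower (from 4.92) in the terminal sac than in the canalicular. The 40 reads came from 1 circle (chromosome X, 8276842 to 8278148) with 5 distinct alignment patterns, and no annotated transcript of the gene had both of its ends in exons. It was the only member circle with so few patterns for its reads. Without circles marked for this the gene has no reads, so neither difference has a value. Slc43a3, placed here by its family and known as a nucleobase carrier, had 7, 3, 7 and 7, and Slc43a1, the neutral amino acid carrier LAT3, had 6, 4, 0 and 4.

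Sugar, monocarboxylate and nucleotide-sugar carrier hosts had a summed level of 4.62, 4.48, 6.08 and 9.88 junction reads per 10000 in order of stage. Slc16a10, placed here by its family, carries aromatic amino acids and thyroid hormone. It led the class with 4, 3, 7 and 12 junction reads, highest in the alveolar library. Its circle of exons 2 to 3 had 4, 3, 4 and 12 and was 3.83-fold higher (1.16 to 16.3) in the alveolar than in the terminal sac library. The gene as a whole did not pass in that pair, at 2.19-fold (0.794 to 6.56). Slc2a13, a proton-coupled carrier of myo-inositol, had 0, 0, 10 and 2 reads, and the monocarboxylate carrier Slc16a7 had 0, 3, 2 and 2.

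Ion exchangers and cotransporters held 20, 7, 14 and 24 junction reads from 12 hosts, 8 of which were listed in 1 library. Slc4a7, a sodium bicarbonate cotransporter, had 5, 0, 12 and 3, and Slc8b1, the sodium-calcium exchanger of mitochondria, had 2, 0, 0 and 6. The sodium bicarbonate cotransporter Slc4a4 had 2, 2, 0 and 2. Metal carriers held 14, 14, 10 and 7 reads, with 10 each for the zinc carriers Slc30a7 (4, 6, 0 and 0), Slc30a9 (0, 2, 8 and 0) and Slc39a10 (8, 2, 0 and 0). None of these zinc carriers passed in a pair. Mitochondrial carriers held 3, 5, 13 and 7 reads, led by Slc25a46 (0, 0, 8 and 2) and the coenzyme A carrier Slc25a42 (0, 0, 2 and 5).

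Few hosts had reads enough for a call in each pair. Between the alveolar and the pseudoglandular library 15 of the 105 hosts had 10 or more reads, and 2 were higher (Scn7a and Atp2b4) and 1 lower (Slc20a2). Among all 1084 hosts tested in that pair 12.9% were higher and 16.7% lower. The median log2 ratio of the 15 was 0.18, and that of all hosts tested was -0.12. Among the 15 these calls are 13.3% higher and 6.67% lower, which with so few hosts does not set the members apart.

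Between the canalicular and the pseudoglandular library 17 hosts were tested, and 3 were higher (Slc38a5, Scn7a and Atp2b4) and 1 lower (Slc20a2), where 8.87% of all 1127 hosts were higher and 11.3% lower. Among the 17 these calls are 17.6% higher and 5.88% lower, and Slc38a5 and Scn7a were set against the floor. The Slc38a5 circle is also marked for few alignment patterns. The median log2 ratio of the 17 was -0.26, against 0.01 over all hosts. Between the terminal sac and the canalicular library 19 were tested. Scn7a, Slc27a6, Cacna1d and Slc10a7 were higher and Slc38a5 was among the lower, where 12.4% of all 1236 hosts were higher and 12.1% lower. The median log2 ratio of the 19 was 0.64, against 0.02 over all hosts. So few hosts do not set the members apart in either pair. Consecutive pairs share a library, so Slc38a5, high in the canalicular, is counted in both. In the same way Slc27a6 and Slc10a7, high in the terminal sac, are counted here and in the next pair.

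Between the alveolar and the terminal sac library 16 hosts were tested. Cacna1c was higher and Slc27a6, Atp9b and Slc10a7 were lower, where 12% of all 1197 hosts were higher and 12.4% lower. The median log2 ratio of the 16 was -1.01, against -0.23 over all hosts. This median and the 0.64 of the pair before rest on the same terminal sac library, so they are not separate results. Some hosts also reached the minimum of 10 reads mainly through that library. Slc10a7 had 0 reads in the alveolar and 15 in the terminal sac library, and Slc2a13 had 2 and 10. In the pair before, Slc4a7 had 0 in the canalicular and 12 in the terminal sac library. So few hosts, tested in this way, do not set the members apart. Each of Slc27a6, Slc10a7 and Atp9b had its highest level in the terminal sac library. Macrophage markers were highest there too, at 16.6 per 10000 against 15.1 in the canalicular library. Neuron markers were at 1.94 against 1.92. The part of these cells in the host values was not tested.

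**Figure D4:**
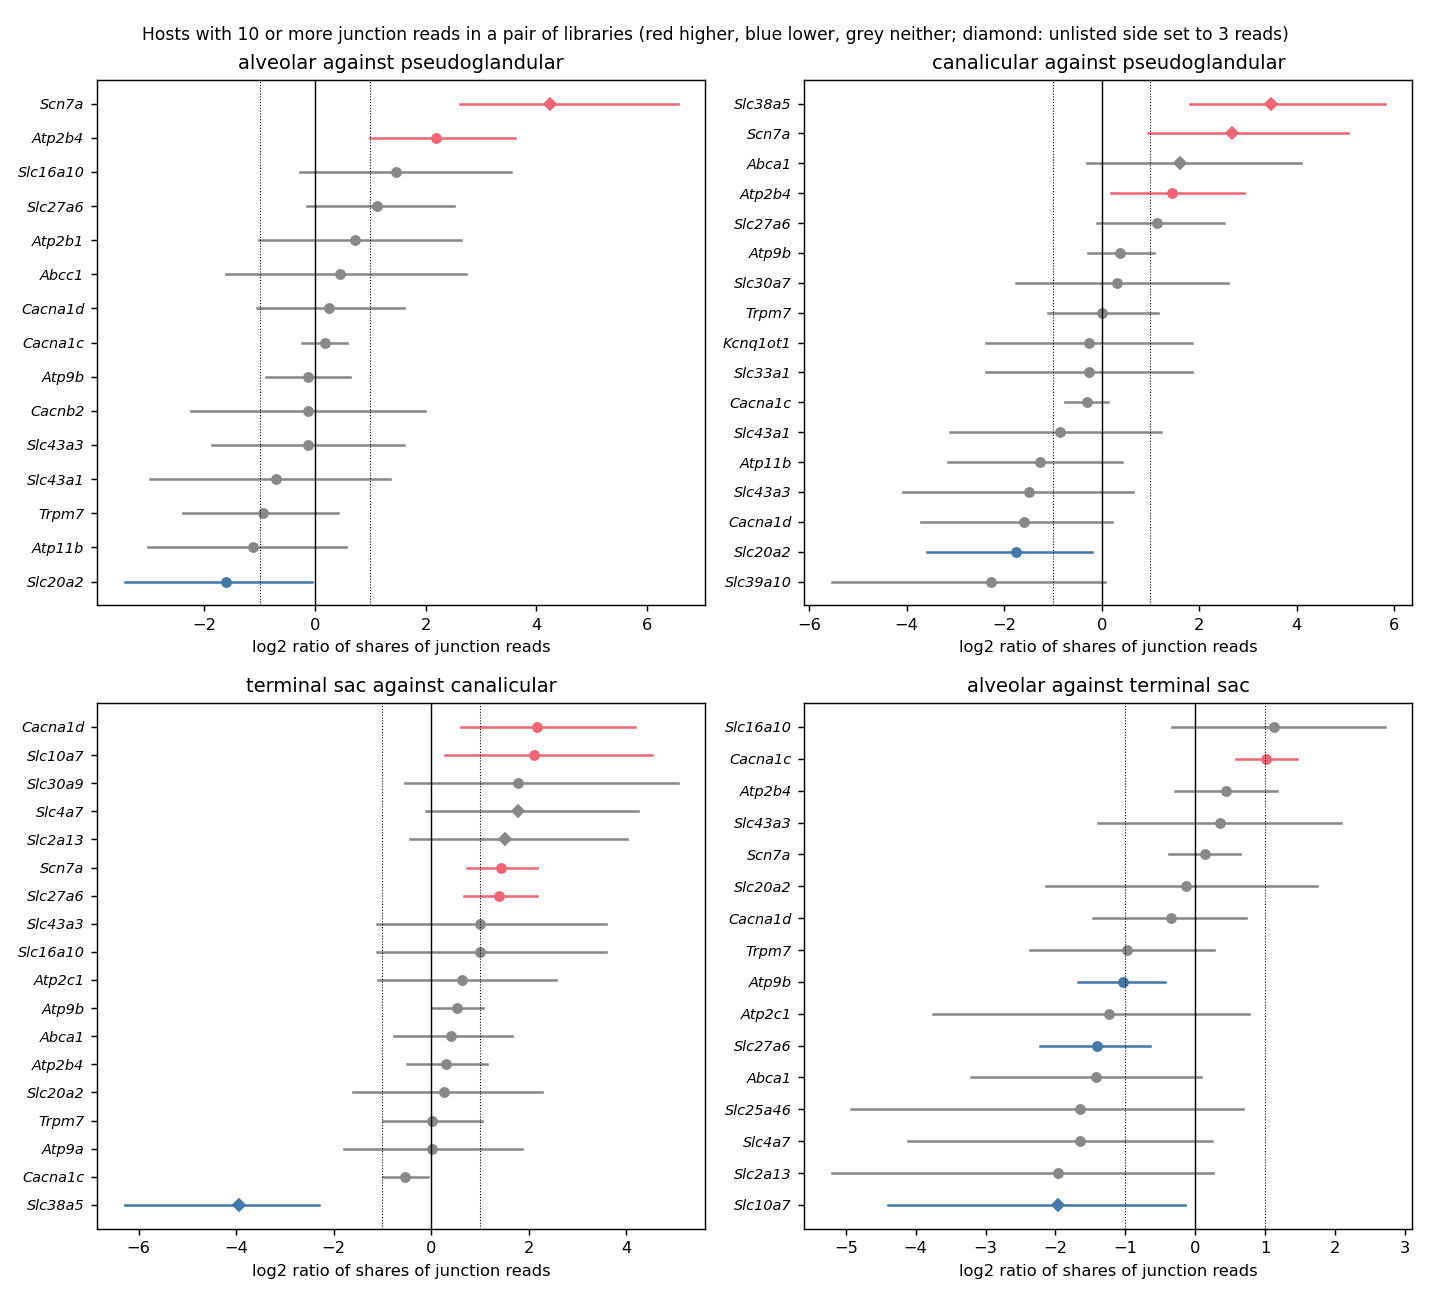
Log2 ratio of shares of junction reads (x axis) with 95% counting intervals for each host whose reads in both libraries came to 10 or more, red for higher, blue for lower and grey for neither; dotted lines mark 2-fold, diamonds mark hosts with 1 unlisted side, and 1 host tested between the terminal sac and the canalicular library is not drawn. Between the alveolar and the pseudoglandular library 2 of 15 hosts were higher and 1 lower, and between the alveolar and the terminal sac library 1 of 16 was higher and 3 lower.

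Of the 228 circles 13 had 10 or more junction reads in the alveolar and pseudoglandular libraries together. Among them 3 were higher and 0 lower, where 11.9% of all 915 circles tested were higher and 17% lower. They were exons 5 to 9 of Scn7a (at least 9.17-fold, interval from 2.85) and exon 2 of Atp2b4 (4.59-fold, 2.01 to 12.2). The last was exons 2 to 4 of Scn7a (at least 5.50-fold, interval from 1.61). The median log2 ratio of the 13 circles was 1.10, against -0.12 over all circles tested. Cacna1c, Scn7a and Atp9b each gave more than 1 of the 13, and both Scn7a circles were set against the floor. Summed by host, the median in that pair was 0.18. So few circles do not set the members apart. In the canalicular and pseudoglandular libraries 13 circles were tested, 3 higher (Slc38a5, Scn7a exons 5 to 9 and Atp2b4 exon 2) and 0 lower, where 7.85% of all 993 were higher and 9.67% lower. In the terminal sac and canalicular libraries 18 were tested, 3 higher (Slc27a6 and both leading Scn7a circles) and 1 lower (Slc38a5), where 8.71% of all 1182 were higher and 10.6% lower. In the alveolar and terminal sac libraries 16 were tested. The 2 higher were Cacna1c exon 2 to the intron and Slc16a10 exons 2 to 3. The 3 lower were Slc27a6 and the Atp9b circles of exons 2 to 4 and 2 to 7. Among all 1107 circles 10.1% were higher and 10.8% lower. In these later pairs as well, so few circles do not set the members apart.

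The files also count non-junction reads, which align linearly across the ends of a circle. The circular share was taken as 2 times the junction reads over that plus the non-junction reads. Over the 29 member circles with 10 or more reads it ranged between 0.669% and 27.9% with a median of 4.13%, and over 1905 other circles the median was 3.91%. Exons 2 to 3 of Slc16a10 (27.9%) and of Cacna1c (23.9%) were at the top, and exons 5 to 10 of Slc43a3 (0.669%) and exons 2 to 4 of Scn7a (0.995%) were near the bottom. Non-junction reads are listed only where the circle itself is listed.

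To compare circular shares, the odds of a junction read over a non-junction read in one library were divided by those in the other. The interval is Woolf's, and the limits were again 2-fold and 10 or more junction reads. For the alveolar and the pseudoglandular library 11 member circles were tested, 1 higher and 1 lower, where 14.8% of all 786 circles were higher and 7.38% lower. Exon 2 of Atp2b4 had 35 junction and 336 non-junction reads in the alveolar library (17.2%), against 7 and 234 in the pseudoglandular (5.65%). The odds ratio was 3.30 (1.47 to 7.38). Its circular share was thus higher along with its level. Exons 2 to 3 of Cacna1d had 3 and 278 in the alveolar library (2.11%), against 8 and 91 in the pseudoglandular (15.0%), an odds ratio 7.39-fold lower (2.08 to 26.2).

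Summed by host, 14 transporter and channel hosts could be compared in that pair, where 15.2% of all 985 hosts were higher and 8.22% lower. Atp2b4 and Slc43a1 were higher, and Cacna1d and Cacnb2 were lower. Cacnb2 had 5 junction reads in both libraries, with 760 non-junction reads in the alveolar library (1.30%) and 38 in the pseudoglandular (20.8%). Host sums count a linear read more than once where circles share an end, and they change when different circles are listed. Over circles listed in both libraries 8 hosts remained, of which 1 was higher and 1 lower.

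The circular share of the Slc27a6 circle differed in both later steps. Its junction reads were 8, 21, 64 and 19 in order of stage, and its non-junction reads 430, 967, 692 and 1761. The circular share was 3.59%, 4.16%, 15.6% and 2.11%. The terminal sac library had the most junction reads, and the alveolar library had the most linear reads at the same ends. In the terminal sac library the odds were 4.19 times those of the canalicular (2.55 to 6.89), and they were 8.41-fold lower (5.03 to 14.1) in the alveolar than in the terminal sac. Among all circles tested 20.2% were higher in the earlier of these steps and 19.9% lower in the later, so both directions were common in the series.

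Exons 2 to 4 of Atp9b moved in the same way, with circular shares of 10.3%, 11.9%, 24.4% and 9.24% in order of stage. In the terminal sac library the odds were 2.36 times those of the canalicular (1.30 to 4.29), and they were 3.08-fold lower (1.52 to 6.24) in the alveolar than in the terminal sac. The circular share of exons 2 to 3 of Cacna1c was between 19.3% and 28.3%, and no pair reached 2-fold. Its odds in the alveolar library were 0.603 times those of the terminal sac (0.409 to 0.889). Against the pseudoglandular library they were 0.694 times (0.487 to 0.990). Over all circles tested in these pairs the median odds ratios were 0.707 and 1.18. For Scn7a the circular share of exons 5 to 9 was 2.11%, 2.34% and 1.60% in the canalicular, terminal sac and alveolar libraries. Its non-junction reads were 1485, 3923 and 3693, so junction and linear reads were both lowest in the canalicular of the 3.

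Counted over the pairs, 2 of 11 member circles were higher and 0 lower by circular share between the canalicular and the pseudoglandular library (10.7% and 4.85% of all 887). Those were exon 2 of Atp2b4 and exons 2 to 5 of Cacna1c. Between the terminal sac and the canalicular library 2 of 17 were higher and 0 lower (20.2% and 2.61% of all 1073). Between the alveolar and the terminal sac library 1 of 15 was higher, exons 2 to 3 of Slc16a10, and 3 were lower (3.54% and 19.9% of all 989). The 3 were exons 2 to 4 of Slc27a6, exons 2 to 4 of Atp9b and exons 2 to 3 of Cacna1d.

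**Figure D5:**
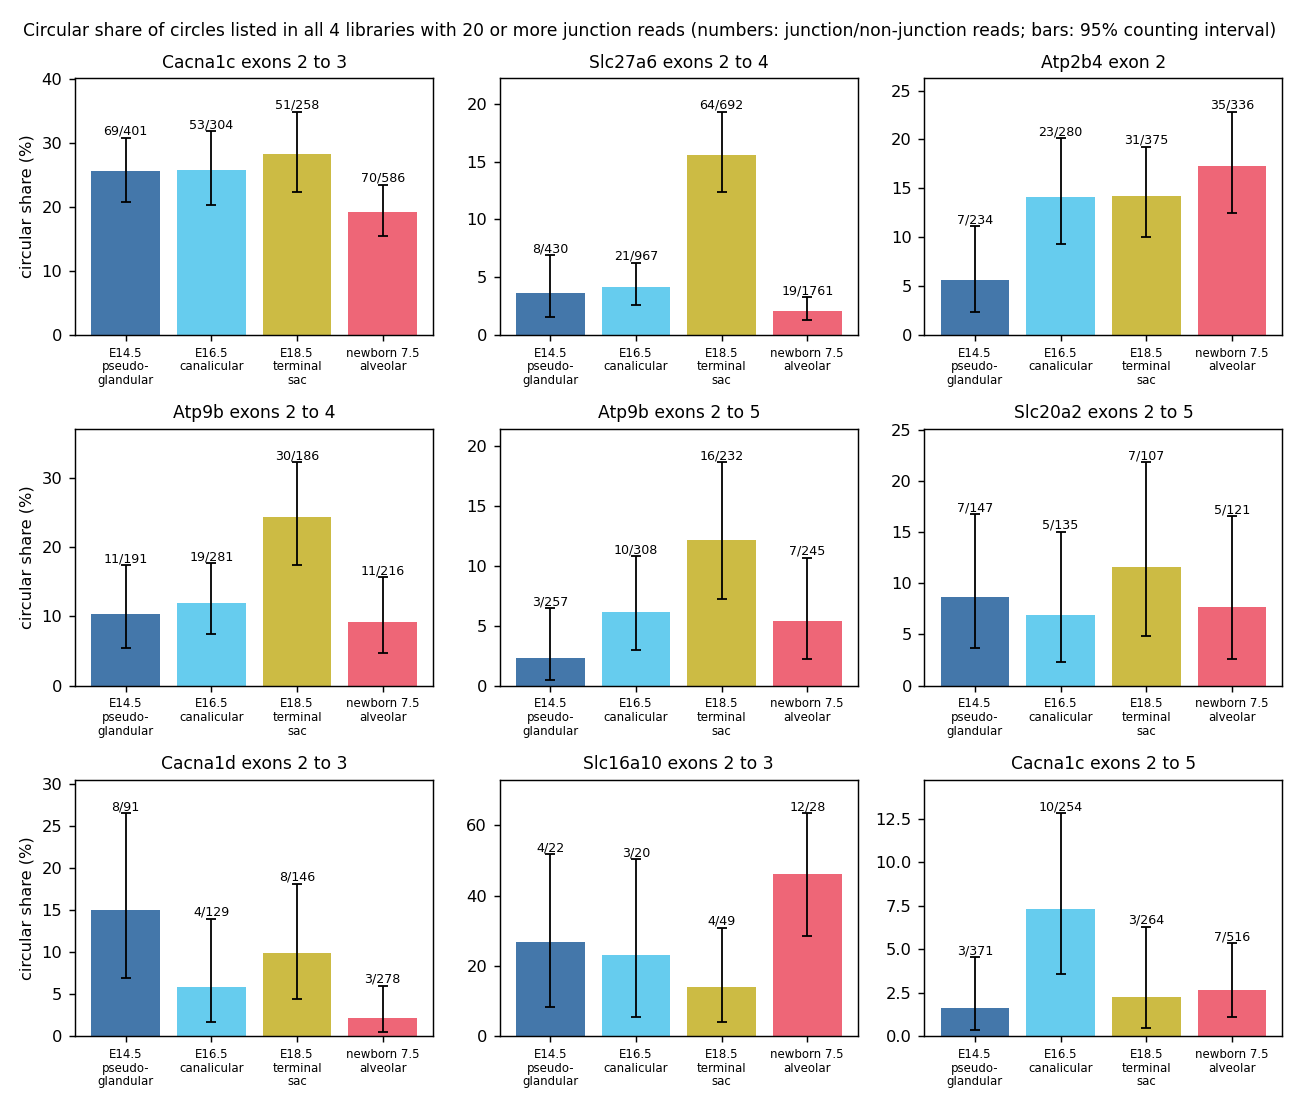
Circular share in percent (y axis, own scale in each panel) in the 4 libraries for the 9 circles with annotated exons that were listed in all 4 and had 20 or more junction reads, with junction and non-junction reads over each bar and 95% counting intervals. Exons 2 to 4 of Slc27a6 stood at 15.6% in the terminal sac library and between 2.11% and 4.16% in the others, and exons 2 to 3 of Cacna1c between 19.3% and 28.3%.

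The build of member circles was set beside that of the other circles of the series. Both ends lay at exon boundaries of 1 transcript for 157 of 228 circles (68.9%), against 77.2% of the 12780 other circles with a host. Circles of the intron type made up 17.5% of members and 10.9% of the others. The median spliced length was 630 bases with 4 exons, against 651 bases with 5 exons. Of the 157 circles, 58 (36.9%) began at exon 2, against 29.3% of the others, and they held 67.2% of the reads of such circles, against 43.7%. No test was made of these shares, and the member value is weighted by Cacna1c, Atp9b, Slc27a6 and Atp2b4.

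Of the member circles 78.5% were listed in 1 library and 6.14% in all 4, against 73.9% and 6.84% of the others. The 14 circles listed in all 4 libraries held 42.9% of member reads. Identical bases at the ends (6 or more in a row) or few alignment patterns marked 10 member circles with 115 reads. They were 4.39% of member circles, against 2.77% of the others. The files hold no strand column, so reads of Kcnq1ot1, which lies opposite to Kcnq1, and of Kcnmb1, opposite to Kcnip1, cannot be assigned to a strand. A circle of 2 reads is assigned in the files to both Slc22a14 and Oxsr1.

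A second list of 81 transport genes outside the symbol rule, which holds sodium and proton pumps, chloride and mechanosensitive channels, intracellular calcium release channels and aquaporins, had 34 listed hosts. Between the alveolar and the pseudoglandular library 8 were tested, 0 higher and 1 lower. Ryr2, the calcium release channel of heart muscle, had 11, 0, 0 and 2 junction reads in order of stage and was 6.00-fold lower (1.31 to 55.7) there. Between the canalicular and the pseudoglandular library 0 of 5 were higher and 2 lower. Ryr2 was at least 4.41-fold lower (interval from 1.16). Gjc1, a connexin of vessel muscle (10, 0, 4 and 6 reads), was at least 4.005-fold lower (from 1.03).

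Between the terminal sac and the canalicular library 0 of 5 were higher and 1 lower, the lysosomal channel Mcoln1 (8, 11, 3 and 3 reads), at 4.25-fold (1.12 to 23.7). In the alveolar and terminal sac libraries 2 of 10 were higher and 0 lower. Ano6, a lipid scramblase and ion channel, had 6, 2, 4 and 11 reads and was 3.51-fold higher (1.04 to 15.1). Piezo2, a mechanically gated channel, had 2, 0, 0 and 10 and was at least 4.25-fold higher (interval from 1.10). Atp6v1h, a subunit of the proton pump, had 9, 9, 14 and 17. The list holds too few tested hosts to set its counts beside a percentage.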

How the data were processed

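Total RNA of 4 lung libraries was analysed from lists of circRNAs, 1 per library. Junction and non-junction reads were deposited by the authors as raw counts per circRNA, per the file headers. The authors also deposited the junction ratio, a fraction that doubles the junction reads and divides them by the same plus linear reads, and recomputing it gave 0 mismatches. A blank non-junction cell was read as 0. The build was mm10 and the tools were BWA, HISAT2 2.0.5, cutadapt, HTSeq and StringTie, per the submitters' processing notes. Their roles, and filters beyond the minimum of 2 junction reads found in the files, are not given in the sources used here.

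A circle was identified by chromosome, start and end. Host identifiers were matched to GENCODE M21, which is on the same build, where 4647 of 4653 were found and 602 genes fit the symbol rule. Reads were summed by host and library and divided by all listed junction reads of the library (25983 to 36156), which sets the precision: 3 reads were between 0.00830% and 0.0115%. Ratios, intervals and odds ratios (0.5 added to each count) were computed over all hosts or circles, and the script was tested on simulated data. A host unlisted in a library was set to 3 reads. Circles were marked when 6 or more identical bases stood at both ends or when they had few alignment patterns, meaning 10 or more reads in a library with patterns below 0.4 of the reads (at most 100 counted).

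Hosts were named if they had 40 or more reads, were called in a pair, were among the 3 leading hosts of a class, the 10 leading circles, the 5 hosts with most circles or those called by circular share, or were called in the second list. Hosts that the rule selects but that are not named are not reported here. A few others (Cacnb4, Atp2a2, Slc33a1, Atp6v1h and potassium channel hosts) were chosen after their values were seen. The members, classes, marker lists and second list were chosen with earlier results of these data known. Alternatives were a minimum of 20 reads, other scalings, and leaving out marked, intron-type, multi-host or unshared circles. Leaving out the 3 hosts that name no transporter, and summing circular shares over circles listed in both libraries, were added after seeing the data. Python 3.11.15 was used with numpy 2.4.6, pandas 2.3.3, scipy 1.17.1 and matplotlib 3.10.9.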

Additional observations from a re-analysis of the deposited data

How the results depend on the processing

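Of 122 alternatives for hosts named as higher or lower, 111 kept the call, 11 lost it and 0 reversed; the lost calls stand beside their genes above. A further 14 have no value because too few reads were left to test: 2 without marked circles, both of Slc38a5, 5 with 20 or more reads in the pair and 7 over circles listed in both libraries, among them those of Slc38a5 and Slc10a7 and 2 of Scn7a. Of the 111 kept calls, 12 with 20 or more reads and 17 without the 3 hosts that name no transporter could not have changed. Those settings leave the ratio of a tested host as it was. Another 17, with single host identifiers, could change only through the library totals. These kept calls are thus no check on the results. Of 108 alternatives for counts and shares, 82 stayed within their limits. With 20 or more reads in the pair, lower hosts numbered 0 for the alveolar and 0 for the canalicular against the pseudoglandular library, and 1 for the terminal sac against the canalicular. By circular share 1 host was then higher and 1 lower. Lower hosts of the alveolar against the pseudoglandular library numbered 0 with median-of-ratios scaling, 0 with scaling by non-junction reads and 0 without marked circles. Without marked circles 1 host was lower in the terminal sac than in the canalicular library, and the member share of the alveolar library was 1.88%. With exon-type circles, 0 hosts were higher in the alveolar than in the terminal sac library, and 1 was lower by circular share in the alveolar than in the pseudoglandular. Over circles listed in both libraries, which leaves fewer hosts to test, 1 host was higher and 0 lower in the alveolar, and 1 higher and 0 lower in the canalicular, against the pseudoglandular library. In the same setting 2 were higher and 0 lower in the terminal sac against the canalicular, 2 were higher in the alveolar against the terminal sac, 1 circle was higher in the alveolar against the pseudoglandular, and by circular share 1 host was higher and 1 lower. The member share of non-junction reads was 0.769%, 0.835%, 0.727% and 2.09% in order of stage, and Scn7a held 35112 of the 59575 in the alveolar library. Relative to junction-read totals, the log2 ratio of the alveolar to the pseudoglandular library shifts by 0.12 with median-of-ratios scaling and 0.17 with non-junction reads, that of the canalicular to the pseudoglandular by 0.18 with non-junction reads, and that of the alveolar to the terminal sac by 0.13 with median-of-ratios scaling. No paired analysis was possible because each stage has 1 library and the labels carry no replicate numbers. Depth limits what could be seen: 24 of 105 hosts had 2 reads in all.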

Other observations

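Some circles without a deposited host have an end inside a transporter or channel gene. Such circles held 7 junction reads at Slc25a15 in the terminal sac library, 3 at Trpm4 in the canalicular library, 3 that touch both Abcb1a and Abcb1b in the terminal sac library, and 2 at Slc27a6 in the canalicular library. They were not counted among the members, and in each of them the other end lies outside the gene.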
